A study of Homo sapiens with 6 samples.

Results

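The ZNF genes measured here are those whose symbol on the array is ZNF followed by digits alone, and they were found by that spelling among the probe sets that the platform's probe table pairs with 1 gene symbol. They came to 93 of the 8746 probe sets that are not controls, and to 91 of 7713 named genes, with 2 probe sets each for ZNF117 and ZNF133. Messenger RNA was profiled on 6 short-oligonucleotide arrays of A549 cells, an established line of human lung adenocarcinoma. In the cisplatin group, 3 arrays held RNA of cells exposed for 1 hour to 50 µM of cisplatin, whose platinum forms crosslinks in DNA. In the control group, 3 arrays held RNA of cells given medium without the drug for that hour. All cells then spent 10 hours in drug-free medium, and the series description speaks of 3 independent experiments.

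Most ZNF proteins bind DNA through C2H2 zinc fingers, small loops in which a zinc ion is held by a pair of cysteines and a pair of histidines, and a row of such fingers reads a DNA sequence. Many carry a KRAB domain, which recruits the corepressor TRIM28 (KAP1) and through it the histone methyltransferase SETDB1 and heterochromatin proteins, and this silences retrotransposons among other targets. Some carry a SCAN domain, which lets them pair, and a few members bear the symbol without being classical transcription factors. Transcripts of such regulators are often short-lived, and platinum adducts stall RNA polymerase II, so the question put to these genes was whether their intensities differed 10 hours after the drug.

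The gene locations are spread over 20 chromosomes in the RefSeq annotation of GRCh38.p14, and 39 of the 93 probe sets lie on chromosome 19, where zinc finger genes stand in tandem clusters. By domain, assigned from general knowledge of these proteins, 51 probe sets stood for KRAB members, 4 for members with both SCAN and KRAB, 4 for SCAN alone, 28 for members with neither, and 6 were not assigned. The probe set names end in _x_at for 9 members, a mark that probes may bind transcripts of related genes, so the values of these 9, such as ZNF85, ZNF43 and ZNF638, cannot be tied to 1 gene with certainty.

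RefSeq start site windows of GRCh38.p14, from 250 bases before to 50 bases after a start, were matched for 79 of the 91 ZNF genes, 108 windows in all because 19 genes had several starts. The motifs were searched on both strands, with letters chosen after the values of the members were known, and overlaps between motifs were not removed. ACTACA followed by any 3 bases and CCC, a form of the motif that ZNF143, itself a member, is known for at promoters, stood in the windows of 17 ZNF genes (21.5%), against 208 of 6130 other named genes of the array (3.39%). Counted by window, the motif was in 16.7% for ZNF genes, 2.34% for the other genes of the array and 2.14% of all windows. CCGGAAG, the core that ETS factors bind, stood in the windows of 39 ZNF genes (49.4%), against 15.4% of the other genes of the array. Counted by window, CCGGAAG was in 37.0% for ZNF genes, 11.4% for the other genes of the array and 10.3% of all windows. Among the ZNF genes 5 had both motifs and 51 had at least 1 of them.

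The GC box GGGCGG, which SP factors bind, stood in the windows of 60.8% of ZNF genes, against 67.8% of the other genes of the array and 48.3% of all genes with a window. TATAAA stood in 6.33% of ZNF genes, against 13.3% of the other genes of the array, and in 11.5% of all windows. These are matches of letters in a window and no measurement of binding. Many ZNF genes of chromosome 19 are copies of one another, so their windows are not independent.

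The stretches that follow show the ACTACA motif because a larger share of ZNF windows than of other windows held it. Each has 40 bases on the strand that reads ACTACA, with the motif in capitals. They belong to 9 of the 10 tested genes with the motif, and in these 9 the 40 bases lie wholly within the 250 before the start. The stretch of the other tested gene is not shown.

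ZNF26: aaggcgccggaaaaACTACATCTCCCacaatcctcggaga
ZNF45: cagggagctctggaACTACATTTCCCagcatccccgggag
ZNF140: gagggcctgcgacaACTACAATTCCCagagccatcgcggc
ZNF146: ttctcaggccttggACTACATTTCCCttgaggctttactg
ZNF180: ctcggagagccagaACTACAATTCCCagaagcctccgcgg
ZNF189: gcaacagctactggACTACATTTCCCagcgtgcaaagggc
ZNF230: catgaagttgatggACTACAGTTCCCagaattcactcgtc
ZNF277: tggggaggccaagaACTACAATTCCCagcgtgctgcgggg
ZNF331: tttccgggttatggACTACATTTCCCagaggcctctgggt

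The stretch of ZNF45 lies at chr19:43935290-43935329 on the plus strand, that of ZNF146 at chr19:36214959-36214998 on the minus strand and that of ZNF331 at chr19:53520874-53520913 on the plus strand. The motif ends 21 bases from the start site in ZNF45, 121 bases in ZNF146 and 114 bases in ZNF331. Of the 17 genes with the motif 10 were tested, and their log2 folds ran from -0.13 to 0.32 with a median of 0.02, 5 lower and 5 higher after cisplatin. For the 47 tested genes with a matched window but no such motif the median was -0.0021. For CCGGAAG the median was -0.02 over 30 tested genes with it and 0.05 over 27 without it.

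The intensity of a probe set depends on its probes as well as on its transcript, so intensities are set against each other only within a probe set. A probe set was tested if its mean log2 intensity over the 6 arrays reached the 25th percentile of all, which 75.0% of all probe sets did by construction. Of the ZNF probe sets 63 of 93 (67.7%) were tested, for 62 genes, and 30 fell below. The members just inside this limit were ZNF45, ZNF222 and ZNF230, with mean intensities of 26.3, 26.4 and 26.8, and those just outside were ZNF639 and ZNF74, with 24.2 and 23.5. Of the KRAB members, SCAN and KRAB included, 33 of 55 probe sets were tested (60.0%), against 28 of 32 (87.5%) of the members known to lack a KRAB domain. On chromosome 19, 22 of 39 were tested (56.4%), against 41 of 54 (75.9%) elsewhere.

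The 30 dim members had mean intensities between -3.23 and 24.2, and 5 members had at least 1 value at or below 0. They were ZNF43, ZNF44, ZNF74, ZNF80, ZNF83, ZNF107, ZNF112, the second probe set of ZNF117, ZNF132, ZNF135, ZNF141, ZNF155, ZNF157, ZNF165, ZNF205, ZNF214, ZNF221, ZNF223, ZNF224, ZNF225, ZNF235, ZNF253, ZNF254, ZNF287, ZNF335, ZNF345, ZNF350, ZNF639, ZNF667 and ZNF717. ZNF350 (ZBRK1), a KRAB repressor known to act with BRCA1 on the growth arrest gene GADD45A, had intensities of 19.9, 9.65 and 18.2 in the cisplatin arrays, against 8.22, 21.6 and 18.3 in the control arrays. These groups overlapped. For ZNF214, the dimmest member, values lay between -9.77 and -1.62 after cisplatin and between -7.45 and 5.92 in control cells, so no level can be read from it. No fold is given for any of the 30.

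No ZNF probe set passed in limma with Benjamini-Hochberg adjustment: 0 of 63 had an adjusted p under 0.05, against 19 of all 6559 tested probe sets (0.29%). At an unadjusted p under 0.05 there was 1 ZNF probe set, which was lower after cisplatin. Of all tested probe sets 5.03% reached that p, 1.63% lower and 3.4% higher. All 3 cisplatin values lay below all 3 control values for 1 ZNF probe set, against 3.57% of all tested probe sets, and above them for 2, against 7.42%. The counts for the members are small and were not tested against the shares of the array, so they are no result about ZNF genes.

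**Figure D1:**
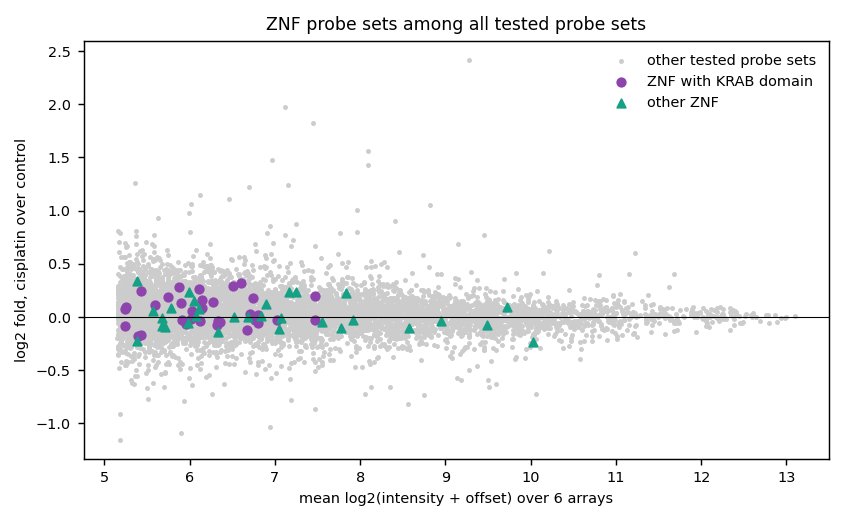
Log2 fold of cisplatin over control (vertical) against the mean log2 of intensity plus offset over the 6 arrays (horizontal) for all 6559 tested probe sets. The 63 ZNF probe sets, KRAB members as circles and the others as triangles, lie between -0.24 and 0.34, within the cloud of other probe sets in grey.

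The log2 folds of the 63 tested ZNF probe sets ran from -0.24 to 0.34, with a median of -0.0021 against 0.04 over all tested probe sets. Scaling to the median turned these medians into -0.07 and -0.03, and an offset of 1 into 0.01 and 0.05, so the side of 0 on which the ZNF median lay depended on the setting. Lower after cisplatin were 32 and higher 31, while 39.5% of all tested probe sets were lower, both without added scaling. With scaling to the median the ZNF split was 38 and 25, where the median over all tested probe sets was -0.03. The split also turned on single arrays, with 19 lower and 44 higher without control 2, 21 and 43 without control 3, 24 and 41 without cisplatin 3, and 38 and 25 without cisplatin 1. In that order the ZNF medians were 0.07, 0.06, 0.07 and -0.06, against 0.06, 0.05, 0.05 and 0.04 over all tested probe sets. No ZNF probe set had an absolute log2 fold above 0.5, which 2.29% of all tested probe sets had. The standard deviation of the log2 folds was 0.14 over the ZNF probe sets and 0.20 over all. The 95% intervals of all 63 lay inside a 2-fold change in either direction, as did those of 97.4% of all tested probe sets. Of the 63, 26 (41.3%) lay inside a change of 1.41-fold (0.5 on the log2 scale), against 49.8% of all. These folds and limits are those of intensity plus the offset, which understates the folds of dim members. They therefore do not bound the folds of intensity itself.

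**Figure D2:**
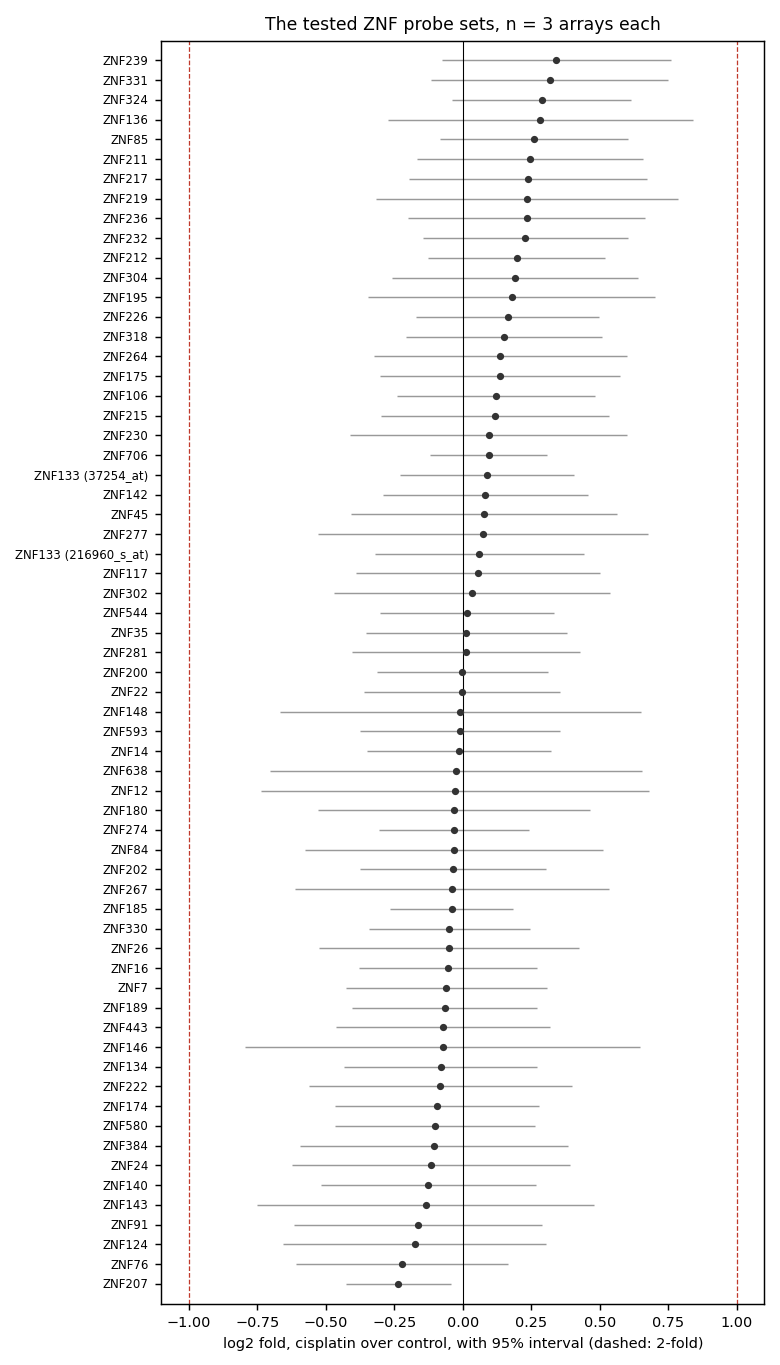
Log2 fold of cisplatin over control (horizontal) for the 63 tested ZNF probe sets in order of size, each point with its 95% interval from limma (n = 3 arrays each). All intervals lie between the dashed lines at a 2-fold change of intensity plus offset, and that of ZNF207 at the bottom is the only one that leaves out 0.

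ZNF207 (BuGZ), which binds BUB3 and microtubules and takes part in building the mitotic spindle, was the 1 member whose cisplatin arrays all lay below the control arrays. Its intensity was 919, 1024 and 903 after cisplatin, against 1127, 1101 and 1127 in control cells. The means were 949 ± 65.8 after cisplatin and 1118 ± 14.9 in control cells (SD, n = 3 each). The log2 fold was -0.24 (SE 0.09, 95% interval -0.43 to -0.04), with an adjusted p of 0.780 in limma and an unadjusted one of 0.0207. Over the alternative settings its log2 fold ran from -0.31 to -0.20, and its lowest adjusted p was 0.161. ZNF207 is thus named for an order of 6 values that did not pass the test.

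ZNF324 and ZNF85, both KRAB members of chromosome 19, were the 2 whose cisplatin arrays all lay above the control arrays. ZNF324 had 77.7, 102 and 87.4 after cisplatin, against 68.7, 71.9 and 70.9 in control cells, a log2 fold of 0.29 (SE 0.15, adjusted p = 0.999 in limma). ZNF85 had 55.8, 73.5 and 62.5 after cisplatin, against 52.1, 49.1 and 52.5 in control cells, a log2 fold of 0.26 (SE 0.15, adjusted p = 0.999 in limma). For both, the highest value was that of cisplatin 2, the array with the highest median over all probe sets. ZNF85 was read by a probe set of the _x_at kind.

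The 150 bases before the start sites of these 3 genes are given because they are the members whose groups did not overlap. Capitals mark CCGGAAG or its reverse complement, and GGGCGG, which do not overlap each other here.

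ZNF207: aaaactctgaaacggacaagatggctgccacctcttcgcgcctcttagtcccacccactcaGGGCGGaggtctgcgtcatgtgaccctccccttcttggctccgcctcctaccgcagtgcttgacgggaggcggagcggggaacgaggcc
ZNF324: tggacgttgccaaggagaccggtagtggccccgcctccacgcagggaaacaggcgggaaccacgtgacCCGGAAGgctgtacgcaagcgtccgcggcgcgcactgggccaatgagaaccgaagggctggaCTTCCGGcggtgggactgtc
ZNF85: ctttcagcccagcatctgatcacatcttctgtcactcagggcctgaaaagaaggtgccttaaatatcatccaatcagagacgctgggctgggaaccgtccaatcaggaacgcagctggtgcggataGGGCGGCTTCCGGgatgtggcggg

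They lie in GRCh38.p14 at chr17:32350007-32350156 for ZNF207, chr19:58466930-58467079 for ZNF324 and chr19:20923101-20923250 for ZNF85, all on the plus strand. ZNF324 held CCGGAAG at 2 places, ZNF85 held it once beside 1 GC box, and ZNF207 held 1 GC box.

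The largest differences, picked after the values were seen, were also small. ZNF239, whose protein lacks a KRAB domain, had 37.9, 28.3 and 39.8 after cisplatin, against 21.6, 29.2 and 25.1 in control cells (log2 fold 0.34, SE 0.19). ZNF331, an imprinted KRAB gene, had 109.7, 93.6 and 88.2 after cisplatin, against 54.0, 92.7 and 84.6 in control cells (log2 fold 0.32, SE 0.19). In both, a control array reached into the range of the cisplatin arrays. At the other end ZNF76, a close relative of ZNF143, had 30.1, 25.4 and 24.8 after cisplatin, against 32.5, 36.9 and 30.1 in control cells (log2 fold -0.22, SE 0.17). The highest cisplatin value and the lowest control value of ZNF76 were thus equal to 3 digits.

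**Figure D3:**
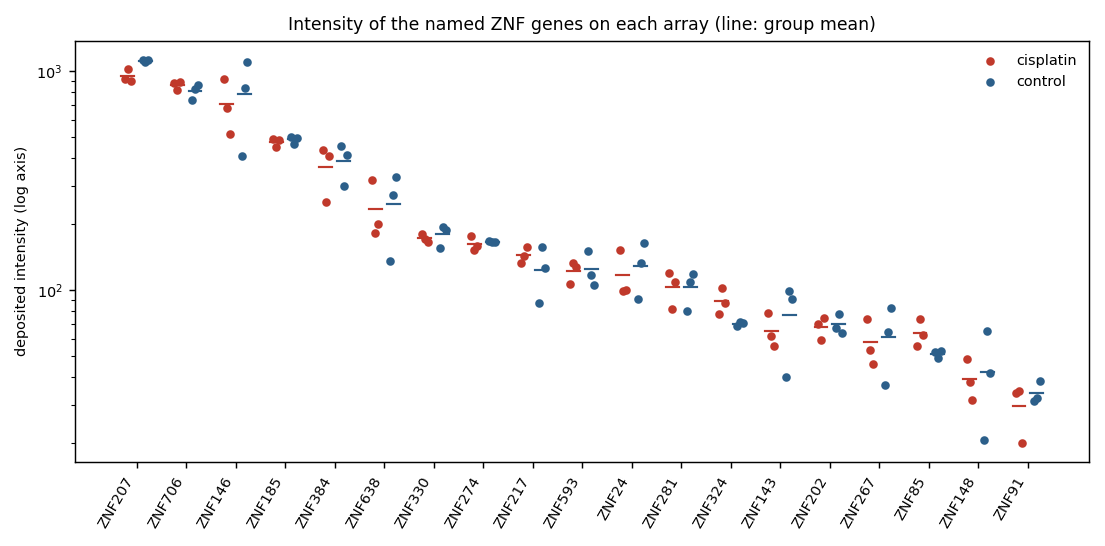
Deposited intensity on a log axis (vertical) of the 19 ZNF genes named by rule, 1 point per array and a line at each group mean, with cisplatin left of control (n = 3 each). The groups part in ZNF207, ZNF324 and ZNF85. The lowest point is control 1 in ZNF706, ZNF146, ZNF638, ZNF330, ZNF217, ZNF24, ZNF281, ZNF324, ZNF143, ZNF267 and ZNF148.

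The members ZNF143, ZNF148, ZNF281 and ZNF384 did not differ beyond the spread of their arrays. ZNF143, an activator of small nuclear RNA genes and many messenger RNA genes, had 78.5, 62.1 and 55.4 after cisplatin, against 40.3, 99.2 and 91.3 in control cells (log2 fold -0.14, SE 0.27). Its 3 cisplatin values lay between the lowest and the 2 higher control values. ZNF148 (ZBP-89) had 48.8, 38.2 and 31.6 after cisplatin, against 20.6, 65.1 and 41.9 in control cells, and its relative ZNF281 had 119.5, 82.2 and 109, against 80.2, 109.6 and 119 in control cells. Their log2 folds were -0.01 and 0.01. ZNF384, which is known as a fusion partner in acute leukaemia, had 435, 253 and 409 after cisplatin, against 454, 299 and 416 in control cells. The log2 fold of ZNF384 was -0.11, and array 2 was the lowest of both groups.

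Repressors overlapped between the groups as well. ZNF217, a corepressor-binding protein whose gene is amplified in breast cancer, had 134, 143 and 158 after cisplatin, against 87.5, 158 and 126 in control cells (log2 fold 0.24, SE 0.19). ZNF24, a SCAN member, had 153, 99.1 and 101 after cisplatin, against 90.9, 133 and 164 in control cells (log2 fold -0.12, SE 0.23). Control 1 was the lowest array of both genes. ZNF202, a SCAN and KRAB repressor of lipid metabolism genes, had 70.2, 59.2 and 74.6 after cisplatin, against 67.6, 78.1 and 64.1 in control cells (log2 fold -0.04).

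Among the KRAB members tested, ZNF274 and ZNF91 are known to act on zinc finger genes themselves or on repeats. ZNF274, which is known to bring SETDB1 to the ends of other zinc finger genes, had 177, 153 and 160.1 after cisplatin, against 167, 167 and 166 in control cells (log2 fold -0.03, SE 0.12). Its control arrays spanned a ratio of 1.01, the narrowest of all tested ZNF probe sets. ZNF91, which represses SVA retrotransposons, had 33.96, 34.6 and 20.1 after cisplatin, against 31.3, 32.2 and 38.5 in control cells (log2 fold -0.16, SE 0.20). ZNF267, also a KRAB member, had 74.2, 53.6 and 45.8 after cisplatin, against 36.8, 64.2 and 83.4 in control cells (log2 fold -0.04, SE 0.26).

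Members known for other work also stayed within their spread. ZNF185, a LIM domain protein of the actin cytoskeleton, had 489, 449 and 485 after cisplatin, against 502, 465 and 497 in control cells, a log2 fold of -0.04 with a 95% interval of -0.27 to 0.18. ZNF593, related to a yeast factor of ribosome export, had 107, 134 and 128 after cisplatin, against 152, 117 and 106 in control cells (log2 fold -0.01). The nucleolar protein gene ZNF330 had 180.4, 172 and 166 after cisplatin, against 157, 194 and 189 in control cells (log2 fold -0.05). ZNF706 had 879.8, 821 and 892 after cisplatin, against 739, 829.7 and 862 in control cells, a log2 fold of 0.09 with an interval of -0.12 to 0.31. The groups overlapped in all 4.

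ZNF146 (OZF), a protein made of little else than zinc fingers, varied widely between arrays of 1 group. It had 924, 681 and 518 after cisplatin, against 411, 837 and 1101 in control cells, so that its highest control array was 2.68 times its lowest, and its log2 fold was -0.07 (SE 0.32). ZNF638, which binds viral and pericentromeric DNA, had 320.0, 183 and 200.3 after cisplatin, against 137, 273 and 329.8 in control cells (log2 fold -0.02, SE 0.30). ZNF12 had 159, 90.9 and 109 after cisplatin, against 64.3, 158 and 163 in control cells (log2 fold -0.03, SE 0.32). In each of these 3 genes control 1 was the lowest of the 6 arrays. ZNF133, a KRAB member and the only gene with 2 tested probe sets, had log2 folds of 0.09 and 0.06 on them.

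Control 1 was the lowest of the 6 arrays for 33 of the 63 tested ZNF probe sets (52.4%), against 29.4% of all tested probe sets. Cisplatin 1 was the lowest for 1 ZNF probe set (1.59%), against 14.2% of all. Measured from each probe set's own mean over the 6 arrays, the median ZNF deviation on the log2 scale was 0.11, -0.05 and -0.03 on cisplatin 1 to 3, and -0.17, 0.10 and 0.03 on control 1 to 3. For all tested probe sets these medians ran from -0.05, on control 1, to 0.03. The difference between the 2 group means was smaller than the range within either group for 50 of the 63 ZNF probe sets (79.4%), against 76.4% of all.

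The ratio of the 3′ to the 5′ control probe sets of ACTB, which rises as RNA is shortened, was 3.67, 2.67 and 2.94 on cisplatin 1 to 3 and 2.20, 2.98 and 2.95 on control 1 to 3. Control 1 thus had the lowest ratio and cisplatin 1 the highest. With that ratio as a covariate the median log2 fold of the tested ZNF probe sets was -0.08, against 0.03 over all, and 0 passed. In that fit 6 ZNF probe sets were lower and 2 higher at an unadjusted p under 0.05, while of all tested probe sets 5.98% were lower and 6.68% higher. Among the 6 were ZNF638, ZNF146, ZNF143 and ZNF24, with log2 folds of -0.44, -0.47, -0.45 and -0.39 in that fit, and 0.199 was the lowest adjusted p of a ZNF probe set there in limma. Without control 1, where 64 ZNF probe sets were tested, their median was -0.05, against 0.02 over all, with 36 lower and 28 higher, and 0 passed. What sets control 1 apart was not tested.

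**Figure D4:**
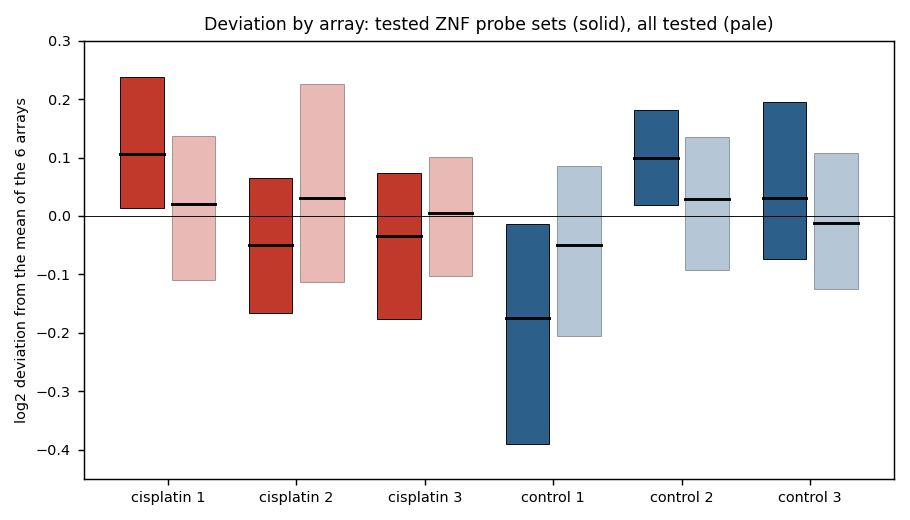
Deviation on the log2 scale from each probe set's mean over the 6 arrays (vertical) for every array, as the interquartile range (bar) and the median (line), for the 63 tested ZNF probe sets (solid) and all 6559 tested probe sets (pale). The ZNF median is lowest on control 1, at -0.17, and highest on cisplatin 1, at 0.11.

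Groups of members that share a domain, a place or a length had medians close together. The median log2 fold was 0.03 over the 33 tested probe sets of KRAB members (15 lower, 18 higher), and -0.01 over the 28 of members without KRAB (16 lower, 12 higher). It was 0.05 over the 22 of chromosome 19 and -0.01 over the 41 elsewhere, with 0.04 over 380 tested probe sets of other genes on chromosome 19. In the cluster of chromosome 19 that runs from ZNF45 to ZNF180 and holds 12 of the measured genes, 5 were tested, ZNF45, ZNF180, ZNF222, ZNF226 and ZNF230, with log2 folds between -0.08 and 0.16. In the cluster from ZNF264 to ZNF324, 7 of 9 were tested, with log2 folds between -0.08 and 0.29, 2 lower and 5 higher.

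The gene span did not order the ZNF folds. Spearman's rho between span and log2 fold was 0.01 over the 63 tested ZNF probe sets, and -0.09 over 5914 tested probe sets with a known span. These are correlations across probe sets that share the same 6 arrays. Among ZNF genes with spans above 30.5 kb 20 probe sets were tested, 10 lower and 10 higher, and their median was 0.0032, against 0.03 over 2662 of other genes in that range. The 2 longest tested members were ZNF236, at 150.3 kb, with 136, 215 and 122 after cisplatin, against 124, 127 and 136 in control cells, and ZNF148, at 149.7 kb.

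The partners through which KRAB members act were read from a list of 36 corepressor genes, of which 22 were measured and all 22 were tested. In limma 0 of them passed and 0 reached an unadjusted p under 0.05, with 11 lower, 11 higher and a median log2 fold of -0.02. Of all tested probe sets 0.29% passed and 5.03% reached that unadjusted p. RBBP7 was the 1 gene of the list whose groups did not overlap. It had 1876, 1979 and 1953 after cisplatin, against 1758, 1844 and 1828 in control cells (log2 fold 0.10). Such a separation to the higher side held for 7.42% of all tested probe sets. TRIM28, the corepressor that KRAB domains bind, had 619.8, 738 and 671 after cisplatin, against 812, 767 and 633 in control cells (log2 fold -0.12, SE 0.12). SETDB1 had 103, 106 and 103 after cisplatin, against 103, 104 and 112 in control cells (log2 fold -0.03). The lowest unadjusted p values in the list were 0.125 for MTA1, a subunit of the NuRD complex (log2 fold -0.30), and 0.133 for the histone methyltransferase gene EHMT2 (log2 fold -0.41).

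Zinc finger genes named otherwise, such as ZBTB, ZSCAN, ZFP and PRDM genes, had 45 probe sets, of which 35 were tested. None of the 35 reached an adjusted p under 0.05 in limma, 0 reached it unadjusted, and the median log2 fold was 0.00087 (17 lower, 18 higher). Among all tested probe sets 0.29% reached 0.05 adjusted and 5.03% unadjusted. CTCF, the insulator protein gene, had 506, 441 and 457 after cisplatin, against 539, 528 and 559 in control cells, so its groups did not overlap (log2 fold -0.21, SE 0.10, adjusted p = 0.988 in limma). Nor did those of ZFP36, which was lower (log2 fold -0.11), and ZFP37, which was higher (0.22). Of all tested probe sets 3.57% were separated lower and 7.42% higher. ZFP36, ZFP36L1 and ZFP36L2 are also among the genes with short-lived messengers below. PRDM11 had the next lowest unadjusted p, 0.188, with a log2 fold of 0.21.

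Regulators known for very short-lived messengers were read beside the ZNF genes. Of 27 such genes 26 were tested, and 4 of these (15.4%) had an absolute log2 fold above 0.5. The same held for 0 of 63 ZNF probe sets and 2.29% of all tested probe sets. The 4 were ATF3 and PMAIP1, both higher, and MYC and JUNB, both lower. The list was chosen with earlier results of these data known, so its share is no test of short-lived messengers as a class. The sets are unlike in level, with a median of the mean intensities of 287 over the list and 68.9 over the 62 tested ZNF genes. The offset shrinks the folds of dim probe sets more. The log2 folds of the list ran from -0.79 to 1.06, with a median of -0.09. The lower end, and 1 of the 4, was JUNB, with 86.2, -31.0 and 76.0 after cisplatin, against 79.5, 86.8 and 46.2 in control cells (SE 0.68, adjusted p = 0.999 in limma). It rests on the negative value of cisplatin 2, which was set to 0, and the next lowest log2 fold was that of MYC. In limma 0 of the list passed, while 3 lower and 2 higher had an unadjusted p under 0.05. Of all tested probe sets 1.63% were lower and 3.4% higher at that p. ATF3, a stress-induced factor, had 83.3, 63.4 and 103 after cisplatin, against 25.2, 40.7 and 34.3 in control cells (log2 fold 1.06, adjusted p = 0.0976 in limma). MYC had 502, 378 and 513 after cisplatin, against 681, 692 and 729 in control cells (log2 fold -0.59, adjusted p = 0.193 in limma). The difference between this list and the ZNF genes was not tested.

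**Figure D5:**
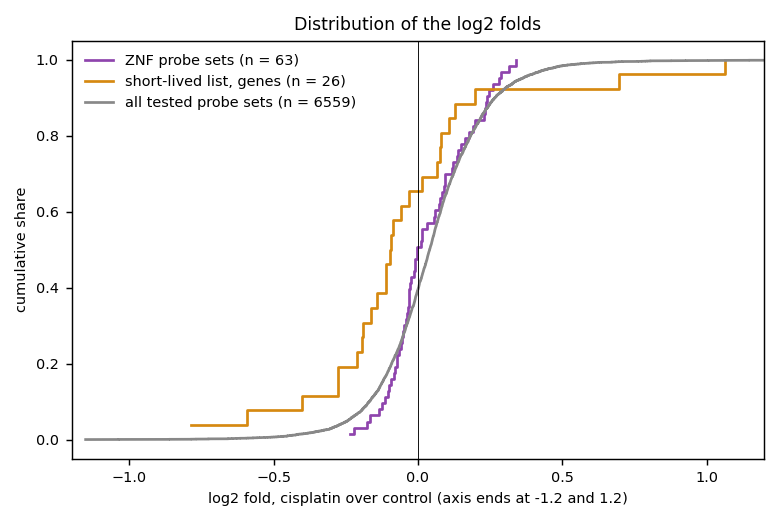
Cumulative share (vertical) of log2 folds of cisplatin over control (horizontal) for the 63 tested ZNF probe sets, 26 genes with short-lived messengers and all 6559 tested probe sets. The ZNF curve runs from -0.24 to 0.34, while the list of short-lived messengers reaches 1.06 at ATF3, and -0.79 at JUNB through 1 negative intensity on cisplatin 2.

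The arrays had median intensities between 57.2 and 67.2. All 6 epithelial markers, KRT7, KRT8, KRT18, KRT19, CDH1 and EPCAM, reached the limit for testing, and the cisplatin and control arrays overlapped in each. Of 8 measured markers of blood, endothelial, stromal and muscle cells, CD3E, CD14, PECAM1, COL1A1 and DES reached it too, with mean intensities between 42.8 and 98.7, and their groups overlapped as well. PTPRC, VWF and COL3A1 fell below it, and COL3A1 had 1.56 ± 1.02 after cisplatin and 1.25 ± 2.53 in control cells (SD, n = 3 each). In cultures measured in bulk, fewer cells of a kind and less RNA per cell cannot be told apart. The number of arrays sets how precise each value is.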

How the data were processed

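The authors deposited probe set intensities on a linear scale, with 723 of 52758 values (1.37%) at or below 0; how background was subtracted, arrays were scaled or probes summarised is not given in the sources used here. Here, values at or below 0 were set to 0, an offset of 11.8 (the 10th percentile of positive values) was added, and log2 was taken, which understates the folds of dim probe sets. The 75th percentiles of the arrays spanned 0.154 on that scale, so no scaling was added.

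The 47 control probe sets were left out, and 6559 of 8746 were tested in limma 3.58.1 under R 4.3.3 (lmFit, eBayes with intensity trend, two-sided, Benjamini-Hochberg over all tested). Residual degrees of freedom were 4, and the prior added 5.54. It was tested on simulated data. Exact tests of 3 against 3 arrays cannot go below 0.1 and were not used. The probe table gave 7840 probe sets 1 symbol, 388 several (6 of them with a ZNF symbol, not used) and 518 none.

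Members and lists were chosen with earlier results of these data known. Named by rule were members past the threshold, up to 8 each way whose groups did not overlap, the 6 brightest, genes whose probe sets differ in sign, and 17 fixed genes, of which 14 were measured. In other lists the members past the threshold and the 2 with the lowest unadjusted p were named. TRIM28, SETDB1, RBBP7, PMAIP1, the 2 longest members, ZNF12, ZNF76, ZNF133, ZNF239, ZNF331 and ZNF350 were added after values were seen. Domain classes replaced a protein search that had been planned. Whether arrays of a group came from separate cultures rests on the series description; p-values measure only the spread between these arrays. Figures used matplotlib 3.10.9 under Python 3.11.15.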

Additional observations from a re-analysis of the deposited data

How the results depend on the processing

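In limma, 0 ZNF probe sets, 0 corepressor genes and 0 other zinc finger probe sets passed under the main and all 19 alternative settings, and the lowest adjusted p of a ZNF probe set was 0.161, for ZNF207 with array weights. Among all probe sets 19 passed, against 11 after median centring, 8 when the prior had no trend, 47 with the ACTB ratio as covariate, 44 with array weights and 6 to 18 with 1 array left out (11 or fewer without any array other than control 1); the cause was not tested. With the replicate number as a block (replicate block) 5 of all probe sets and 0 ZNF passed. In that fit 0 ZNF had an unadjusted p under 0.05, while 1.02% of all tested probe sets were lower and 1.91% higher at that p. Equal numbers are not said to share an experiment. The deviations of equally numbered arrays correlated at -0.56, -0.31 and -0.12 over the tested probe sets. ZNF probe sets lower at an unadjusted p under 0.05 numbered 1, where 1.63% of all tested probe sets were lower at that p. They numbered 0 without the trend (1.59% of all), 6 with the covariate (5.98%) and 2 without control 1 and cisplatin 2 (3.28%). With 1 array left out they numbered 0 to 3 (1.05% to 2.88% of all). Higher ones numbered 0 (3.4% of all), against 1 without the trend (4.13%), 2 with the covariate (6.68%) and 2 with array weights (6.48%). With 1 array left out 0 to 1 were higher (2.67% to 3.93% of all). Separated ZNF probe sets numbered 1 lower and 2 higher, where all probe sets gave 3.57% and 7.42%. With median centring 3 were lower and 2 higher (6.24% and 3.81% of all). Centring on the 75th percentile gave 3 lower and 1 higher (5.7% and 4.77% of all). The filter at the 50th percentile gave 1 lower and 1 higher (4.21% and 7.45% of all). Without control 1 and cisplatin 2 there were 9 and 9, where all probe sets gave 16.4% and 20.3%. With 1 array left out separated ZNF probe sets numbered 1 to 6 and 2 to 9, where all probe sets gave 5.06% to 10.0% and 11.5% to 15.1%. Over all probe sets the median was -0.032 with median centring.

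The named folds kept their sign in 314 alternative values and changed it in 43, and the genes that changed sign did not pass in either. Without control 1 and cisplatin 2, log2 folds were 0.0173 for ZNF185, 0.0276 for ZNF202, 0.0130 for ZNF274, 0.25 for ZNF384 and 0.0679 for ZNF593. With array weights they were 0.0248 for ZNF202, 0.126 for ZNF384 and 0.0661 for ZNF593, and with the covariate 0.147 for ZNF593 and -0.183 for ZNF281. ZNF281 had -0.0609, -0.0328 and -0.0634 with median, 75th percentile and quantile scaling, and ZNF148 0.0176 with an offset of 1. With 1 array left out the ranges were -0.482 to 0.0633 for ZNF143, -0.473 to 0.224 for ZNF146, -0.338 to 0.285 for ZNF148, -0.0952 to 0.0467 for ZNF202, -0.327 to 0.0593 for ZNF24, -0.308 to 0.176 for ZNF267, -0.0853 to 0.0107 for ZNF274, -0.141 to 0.153 for ZNF281, -0.139 to 0.00347 for ZNF330, -0.279 to 0.132 for ZNF384, -0.114 to 0.126 for ZNF593, -0.380 to 0.221 for ZNF638 and -0.258 to 0.0123 for ZNF91. ZNF207 stayed lower, and ZNF217, ZNF324, ZNF706 and ZNF85 higher, in all settings that tested them, but ZNF217 had 0.0297 without control 1 and 0.418 without control 2, and ZNF706 0.0301 without control 1. ZNF324 and ZNF85 ran from 0.179 to 0.371 and from 0.168 to 0.338. Dim signal limits the 30 members below the filter, of which 0 passed when it was lifted.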
